A study of Mus musculus with 6 samples.

Results

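The 10 genes described here encode the contractile apparatus of smooth muscle: Acta2, Actg2, Myh11, Myl9, Mylk, Tagln, Cnn1, Lmod1, Smtn and Des. They were taken by gene symbol from the 56884 genes of 6 single-cell libraries, and their unique molecular identifiers (UMIs) were summed over the cells of each type. The study deleted single factors from pericytes of the postnatal lung and brain and asked what the surrounding tissue then lacks. At postnatal day 21 (P21) lungs were taken from iPCKO mice for Bdnf or for Hgf and from their controls, labelled Bdnf lox/lox or Hgf lox/lox. The cerebral cortex was taken at P12 from Nodal iPCKO mice and from controls with Nodal lox/lox alleles. In an iPCKO (inducible pericyte knockout) mouse the floxed gene is recombined by Pdgfrb(BAC)-CreERT2, a transgene active in mural cells, vascular smooth muscle cells included, for which the study describes no recombination in myofibroblasts or bronchial smooth muscle of the lung.

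Every mouse, control or mutant, was injected with 50 µg tamoxifen on each day from P1 to P3, and the genotype of control mice names the floxed alleles and no Cre. Each genotype is 1 library that pools the cells of 2 mice, so a difference between genotypes has no replicate check, no p-value was computed, and pool, library and genotype cannot be told apart. CD45+ cells and erythrocytes had been depleted from the lung suspensions, and myelin debris from the cortical ones.

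Smooth muscle contracts when calcium activates the kinase encoded by Mylk, which phosphorylates the regulatory light chain Myl9 so that the myosin heavy chain Myh11 can pull on the actin filaments of Acta2 and Actg2. Tagln (SM22), Cnn1 (calponin), Lmod1 (leiomodin) and Smtn (smoothelin) bind and organize these filaments, and Des (desmin) forms the intermediate filaments that link them to the cell surface. Transcription of many of these genes depends on serum response factor (SRF), which binds the CArG box, and on its coactivator myocardin. In vessel walls the set defines arterial and arteriolar smooth muscle, capillary pericytes carry less of it to a degree that differs between organs, and in the growing lung alveolar myofibroblasts use part of it.

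Promoter sequences of 7 of the 10 genes were at hand from RefSeq on the build GRCm38.p6, from 250 bases before to 50 bases after the start of the gene. Myh11, Tagln and Actg2 had no entry. An exact CArG box, searched on both strands, was in 535 of 32851 promoters (1.629%) and, among the 7, in that of Myl9. A search added after the exact one took boxes with exactly 1 mismatch, a C or G among the middle bases. Mismatches in the outer CC or GG were not searched. Boxes with 1 such mismatch were in 8.499% of all promoters and 2 or more of them in 0.6788%, and a box of either kind was in 9.984%. Acta2 had 2 boxes with 1 mismatch, and Myl9 had 1 such box beside its exact one. The other 5 promoters held no box of either kind. These 2 stretches are shown because they carry every box that was found; capitals mark the boxes, and both run 5′ to 3′ towards the start of the gene.
Acta2, chr19:34255374-34255487, minus strand, boxes that begin 84 and 34 bases before the start, both with 1 mismatch: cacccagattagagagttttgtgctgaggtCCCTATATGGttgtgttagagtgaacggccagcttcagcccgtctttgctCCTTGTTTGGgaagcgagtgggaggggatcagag
Myl9, chr2:156775273-156775404, plus strand, boxes that begin 161 (exact) and 99 bases (1 mismatch) before the start: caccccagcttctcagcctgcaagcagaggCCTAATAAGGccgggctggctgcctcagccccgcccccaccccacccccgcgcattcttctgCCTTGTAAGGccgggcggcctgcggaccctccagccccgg
A box is a match of letters, and its absence from a window says only that these letters were not there.

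On GRCm39, with the Gencode vM39 annotation, the actin genes Acta2 (ENSMUSG00000035783.10) and Actg2 (ENSMUSG00000059430.15) lie at chr19:34217737-34232990 and chr6:83489887-83513551 on the minus strand. Myh11 lies at chr16:14012399-14109236 on the minus strand, Mylk at chr16:34565580-34822790 and Myl9 at chr2:156617084-156623579 on the plus strand. Tagln lies at chr9:45840909-45847404 and Smtn at chr11:3467520-3490612 on the minus strand, and Cnn1 at chr9:22010512-22020926, Lmod1 at chr1:135252509-135295907 and Des at chr1:75320511-75345223 on the plus strand. All 10 are protein-coding and none overlaps another gene on its own strand. All but Actg2 and Myh11 overlap genes of the other strand, and a strand setting of the count is not given in the sources used here, so reads of such partners may not be told apart.

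Barcodes with at least 1500 UMIs, or 700 in the Hgf libraries, were kept, which left between 3237 and 24311 per library with a median of 2841 to 7791.5 UMIs. Pairs of libraries shared 21 to 457 of these barcodes, 0.888 to 1.35 times the number that independent draws would give. Cells were assigned to classes by marker genes that do not include the 10 genes, and the classes are called "-like". Smooth muscle-like cells numbered 77 in the Bdnf control and 146 in the Bdnf iPCKO lung, 31 and 20 in the Hgf lungs, and 104 and 122 in the Nodal cortices. Pericyte-like cells numbered 135 and 146, 107 and 234, and 233 and 341 in the same order, and myofibroblast-like cells of the lung 921 and 1564, and 127 and 395. Among the 10 genes that led each smooth muscle-like class over all other cells of its library were 3 to 7 of the contractile genes, and none was among those that led a pericyte-like or myofibroblast-like class. The 20 smooth muscle-like cells of the Hgf iPCKO lung are the weakest assignment, with 8 of 12 smooth muscle markers detected and no cluster of their own.

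Values below are levels in CPM, the UMIs of a gene per 1000000 UMIs of the summed cells, with the exact 95% Poisson interval in brackets where one is printed. Each transcript is tagged at its 3′ end, so a level was not divided by the length of the gene. Ratios are log2 with an exact 95% interval. These intervals, like all others given, cover only the error of counting. A gene is counted as higher or lower at a ratio of at least 1.5-fold with at least 50 UMIs over both sums, and a median is taken over the genes with at least 10 UMIs. Each targeted gene was lower in the pericyte-like cells of its iPCKO library. Control cells held 179 UMIs of Nodal (137 CPM) and iPCKO cells 0, where the exact upper limit was 1.73 CPM. Hgf had 24 UMIs (118 CPM) and 10 UMIs (26.2 CPM), and Bdnf 14 UMIs (25.8 CPM) and 3 UMIs (6.58 CPM), with counting intervals of 14.1 to 43.2 and 1.36 to 19.2 CPM that overlapped for Bdnf.

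In control libraries the contractile genes were higher in smooth muscle-like than in pericyte-like cells of both organs, and Smtn of the cortex was higher still in endothelial-like cells. Acta2, the smooth muscle α-actin, stood at 10112 CPM [9797, 10435] in the Bdnf control lung, 16273 CPM [15483, 17093] in the Hgf control lung and 7243 CPM [7075, 7414] in the Nodal control cortex. In pericyte-like cells of the same libraries it stood at 559.7, 1386 and 63.5 CPM, and in myofibroblast-like cells of the 2 control lungs at 284 and 459 CPM. None of these Acta2 intervals overlapped within a library. The order of pericyte-like and myofibroblast-like cells in the Bdnf control turned, however, under 2 other ways of assigning cells. With clusters, labelled by the same markers, in place of single cells the log2 ratio of myofibroblast-like over pericyte-like cells was 3.61. Without cells that carry a second marker class it was 0.20. Actg2, the enteric γ-actin, was low beside Acta2, at 698, 1054 and 149 CPM in smooth muscle-like cells and 33.1 and 39.3 CPM in pericyte-like cells of the lung. The 233 pericyte-like cells of the control cortex held no UMI of it. With that missing count set to 3 UMIs, smooth muscle-like cells there were 65.1-fold higher.

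The myosin genes split by cell type. Myh11, the smooth muscle heavy chain, measured 3631, 4114 and 1255 CPM in smooth muscle-like cells and 418, 472 and 18.4 CPM in pericyte-like cells of the Bdnf, Hgf and Nodal controls. Myl9 measured 2431, 3551 and 2933 CPM in smooth muscle-like cells, and 322, 589.8 and 1314 CPM in pericyte-like cells. Mylk, the light chain kinase, was more even, at 2257, 2538 and 2203 CPM in smooth muscle-like cells and 1064, 1288 and 877 CPM in pericyte-like cells. Mylk was also high where the actins were low: matrix fibroblast-like cells of the Bdnf control lung held 1042 CPM of Mylk with 25.5 CPM of Acta2.

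Among the genes that bind the actin filament, Tagln was the most abundant. It stood at 6598, 9846 and 3591 CPM in smooth muscle-like and 794, 1430.2 and 55.9 CPM in pericyte-like cells. In smooth muscle-like cells it lay below Acta2, but in pericyte-like cells of the Bdnf control lung above it and in those of the Hgf control lung near it. Cnn1 was nearly absent from pericyte-like cells, with 339 UMIs (882 CPM) in smooth muscle-like and 1 UMI in pericyte-like cells of the Bdnf control lung, and 84 against 2 UMIs in the Hgf control lung. Lmod1, which nucleates actin filaments, stood at 1129.7 and 1904 CPM in smooth muscle-like cells of the lungs and at 91.2 CPM in those of the cortex. Smtn was the lowest of the set in smooth muscle-like cells of all 3 controls, at 164, 184 and 72.7 CPM, in the cortex within counting error of Cnn1 (84.0 CPM). Des measured 362, 594 and 140.4 CPM in smooth muscle-like cells and 184, 236 and 54.3 CPM in pericyte-like cells.

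**Figure D1:**
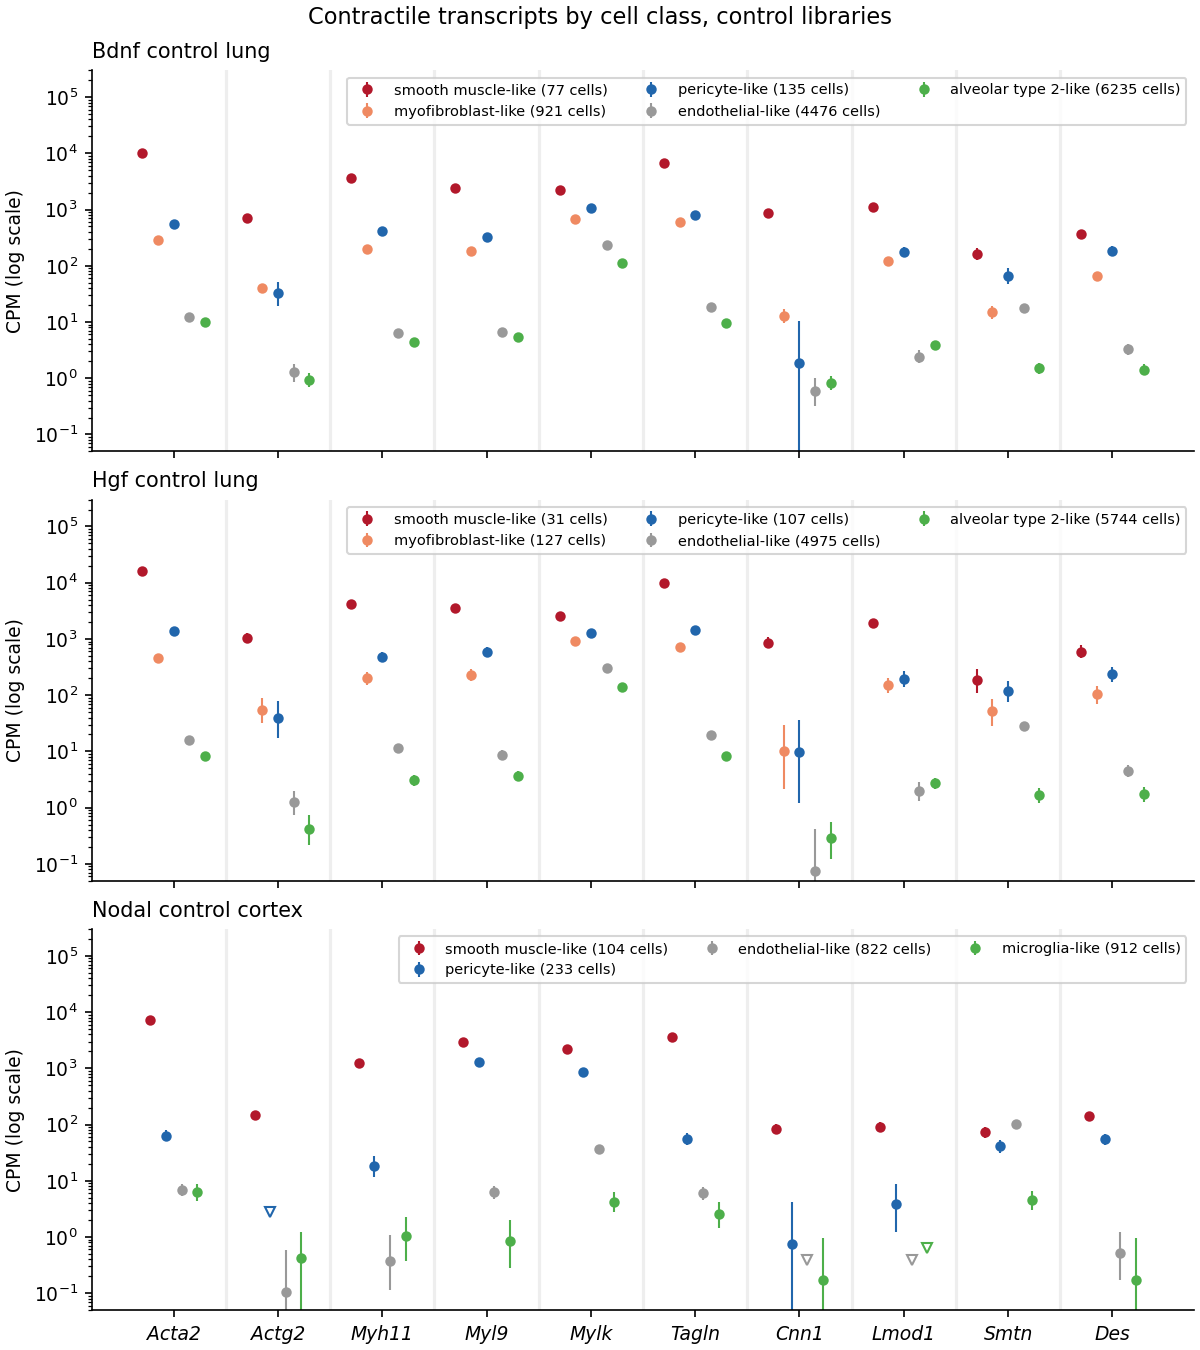
Level of each contractile gene (CPM, log axis) in the cell classes of the 3 control libraries; points are sums over the cells of a class, bars exact 95% Poisson intervals, and open triangles the upper end of that interval for a count of 0. Smooth muscle-like cells lie on top for every gene but Smtn in the cortex, where endothelial-like cells reached 104 CPM against 72.7 CPM, and Mylk and Smtn lie closest together across classes.

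Over pericyte-like cells of the same library, all 10 genes were higher in smooth muscle-like cells of the Bdnf control lung, where 20.6% of 3648 genes were, with a median log2 ratio of 2.99 beside −0.28 over all genes. The ratios ran from 0.97 [0.59, 1.36] for Des and 1.08 [0.93, 1.24] for Mylk to 4.18 [4.01, 4.35] for Acta2, 4.40 [3.71, 5.17] for Actg2 and 8.90 [6.42, 14.21] for Cnn1. In the Hgf control lung 9 of 9 were higher, beside 28.4% of all genes, at a median of 2.95. With clusters the medians moved apart, to 5.00 in the Bdnf and 1.97 in the Hgf control. In the Nodal control cortex 10 of 10 were higher, beside 14.2% of all genes, at a median of 5.29. In the cortex Acta2 differed by 6.83 [6.52, 7.16], a ratio of 114-fold, and Tagln and Myh11 by 6.01 and 6.09. Myl9 differed there by 1.16, Mylk by 1.33 and Smtn by 0.82. Cells with more than 1% of their UMIs in the 10 genes made up 78 of 104 smooth muscle-like and 1 of 233 pericyte-like cells in that library.

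Pericyte-like cells of the cortex and the lung thus carried different subsets. Against the Bdnf control lung, those of the control cortex were lower by −3.14 [−3.51, −2.78] for Acta2, −4.51 for Myh11, −3.83 for Tagln and −5.51 for Lmod1, but higher by 2.03 [1.80, 2.26] for Myl9, and Mylk differed by −0.28 [−0.42, −0.13]. Against the Hgf control lung the same genes differed by −4.45, −4.68, −4.68, −5.68, 1.16 [0.89, 1.44] and −0.55. A UMI of Myl9 was found in 97.4% of the cortical cells and one of Acta2 in 7.73%, or 56.7 and 1.29% after each cell was thinned to 700 UMIs. In microglia-like cells, which should lack Acta2, 3.84% held a UMI of it (0.658% after thinning), and 5 of the 233 cortical pericyte-like cells held 81.9% of that class's Acta2 UMIs. Summed smooth muscle markers stood at 1212 CPM in cortical pericyte-like cells, with 2 of 11 markers at 0, and at 216 and 285 CPM in those of the control lungs, with 3 of 12 at 0. The marker lists of the organs differ, and 1121 of the 1212 CPM came from Casq2, Gper1, Rasl12 and Kcnmb1. Other cortical classes share these genes, which left the marker score but still counted towards the minimum of 3 markers per cell. The markers kept in the score summed to 90.3 CPM in the cortical and 153 and 202 CPM in the lung cells. Their part in the result was not tested. Organ, age (P12 and P21), dissociation, floxed locus and any difference in capture beads cannot be told apart here.

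Between smooth muscle-like cells of the organs Lmod1, Cnn1 and Actg2 differed most. Relative to the Bdnf and Hgf control lungs, the cortical cells were lower by −3.63 and −4.38 for Lmod1, by −3.39 and −3.36 for Cnn1, by −2.22 and −2.82 for Actg2 and by −1.53 and −1.71 for Myh11. Myl9, at 0.27 [0.16, 0.38] and −0.28 [−0.44, −0.11], and Mylk, at −0.03 and −0.20, differed by less than 1.5-fold from either lung. Acta2 differed by −0.48 and −1.17, and the 2 control lungs themselves differed by 0.69 [0.60, 0.77] for this gene. The markers that assigned these cells differ between the organs, and the lung class does not separate vascular from bronchial smooth muscle. Organ, age, dissociation, floxed locus, type of muscle and any difference in capture beads cannot be told apart in these differences.

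**Figure D2:**
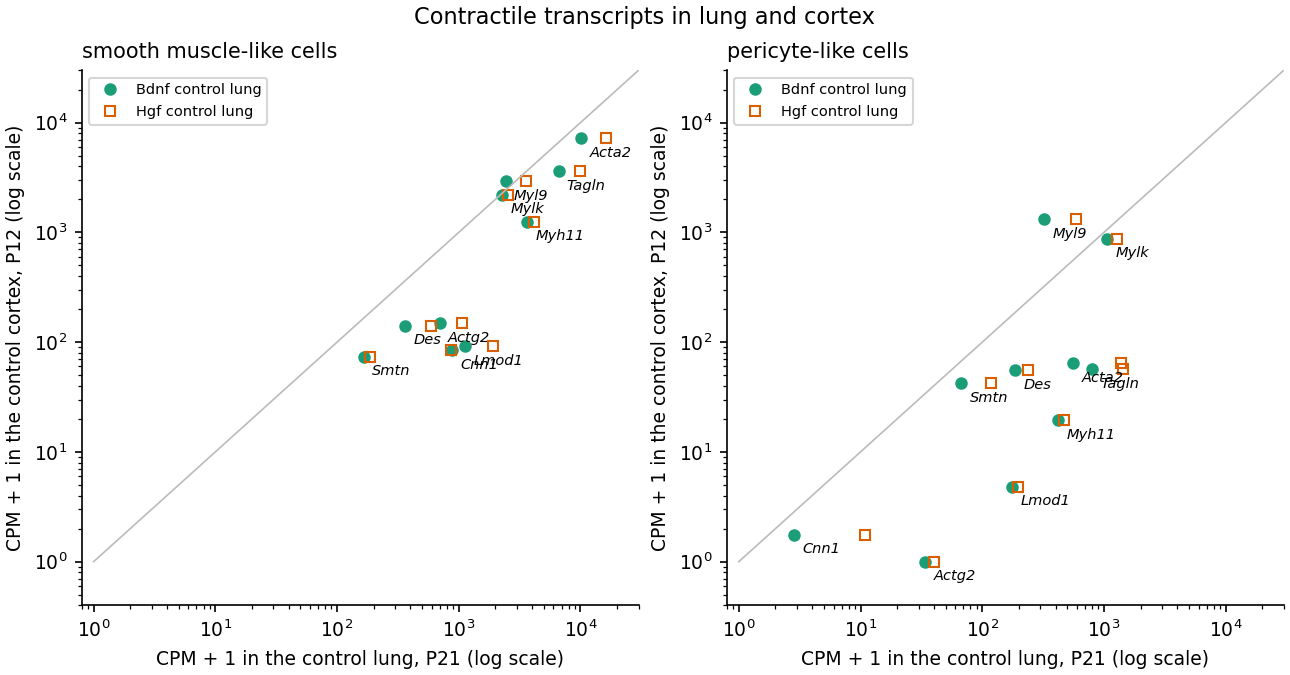
CPM + 1 of each contractile gene in a control lung (horizontal, log axis) against the control cortex (vertical, log axis), for smooth muscle-like and pericyte-like cells; the diagonal marks equal levels, and each gene has 1 point for each control lung. In the pericyte panel Myl9 lies above the diagonal and Mylk next to it, while Acta2, Myh11, Tagln and Lmod1 lie far below.

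The contractile set was thinner in myofibroblast-like than in pericyte-like cells of the lung. In the Bdnf control 6 of 9 genes were lower, beside 19.6% of 9166 genes, at a median of −0.72; Smtn differed by −2.17, Des by −1.48, Myh11 by −1.09 and Acta2 by −0.98 [−1.16, −0.79]. In the Hgf control 5 of 7 were lower, beside 25.4% of all genes, at a median of −1.20, with Acta2 at −1.59 and Mylk at −0.47. The Bdnf values depend on how cells were assigned. With clusters in place of single cells the median was 0.61, Acta2 reached 3.61 and Myh11 0.47. Without cells that carry a second marker class at 0.25 or more of the first the median was −0.17 and Acta2 0.20.

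The share of a transcript that lay in smooth muscle-like cells depended on the gene. Smooth muscle-like cells were 0.449% of the barcodes of the Bdnf control lung and held 42.6% of its Acta2 and 51.5% of its Cnn1 UMIs, but 3.47% of its Mylk and 6.18% of its Smtn. In the Hgf control lung they held 40.9% of Acta2, and in the Nodal control cortex 84.3%. Endothelial-like cells held most of the Smtn UMIs of the cortex (80.1%) and of the Hgf control lung (57.7%), and 40.8% in the Bdnf control lung. For Mylk the largest shares in the Bdnf control lung lay in alveolar type 2-like cells (25.9%) and endothelial-like cells (22.0%), which are many and hold little of it per cell (114 and 234 CPM).

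The Hgf pair of lungs showed the largest differences between genotypes. In pericyte-like cells Acta2 stood at 1386 CPM [1229, 1558] in the control and 197 CPM [155, 247] in the iPCKO library, a log2 ratio of −2.82 [−3.20, −2.44] or 7.04-fold lower. Myl9 stood at 589.8 and 115 CPM (−2.35 [−2.89, −1.84]) and Tagln at 1430.2 and 428 CPM (−1.74 [−2.03, −1.46]). Lmod1 differed by −1.64, Des by −1.13 and Smtn by −0.74 [−1.58, 0.12], or by 0.22 with clusters in place of single cells. With these 6 of 8 genes were lower, beside 11.5% of 2465 genes, at a median of −1.39 beside 0.06 over all genes.

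The kinase and the heavy chain differed less than the actin in these cells. Mylk was at 1288 CPM in the control and 1153 CPM in the iPCKO library, −0.16 [−0.38, 0.07], and Myh11 at 472 and 336 CPM, −0.49 [−0.88, −0.09]. Actg2 went from 8 UMIs in control cells to none in iPCKO cells, 5-fold lower if the missing count is set to 3 UMIs. Cnn1 had 2 and 0 UMIs, which gives no ratio. A UMI of Acta2 was found in 42.1% of control and 10.3% of iPCKO pericyte-like cells, or 34.0 and 7.33% at 700 UMIs per cell, while alveolar type 2-like cells of these libraries had one in 0.958 and 0.383%. For Mylk the shares at 700 UMIs were 55.7 and 52.2%.

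Control pericyte-like cells rich in these transcripts were a minority. The 10 genes together took a median of 0.343% of a cell's UMIs in the control and 0.196% in the iPCKO library, with upper quartiles of 0.785 and 0.326%. Cells with more than 1% numbered 22 among 107 control and 3 among 234 iPCKO cells. The 5 cells richest in Acta2 held 33.7% of the control and 56.0% of the iPCKO UMIs of the gene.

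**Figure D3:**
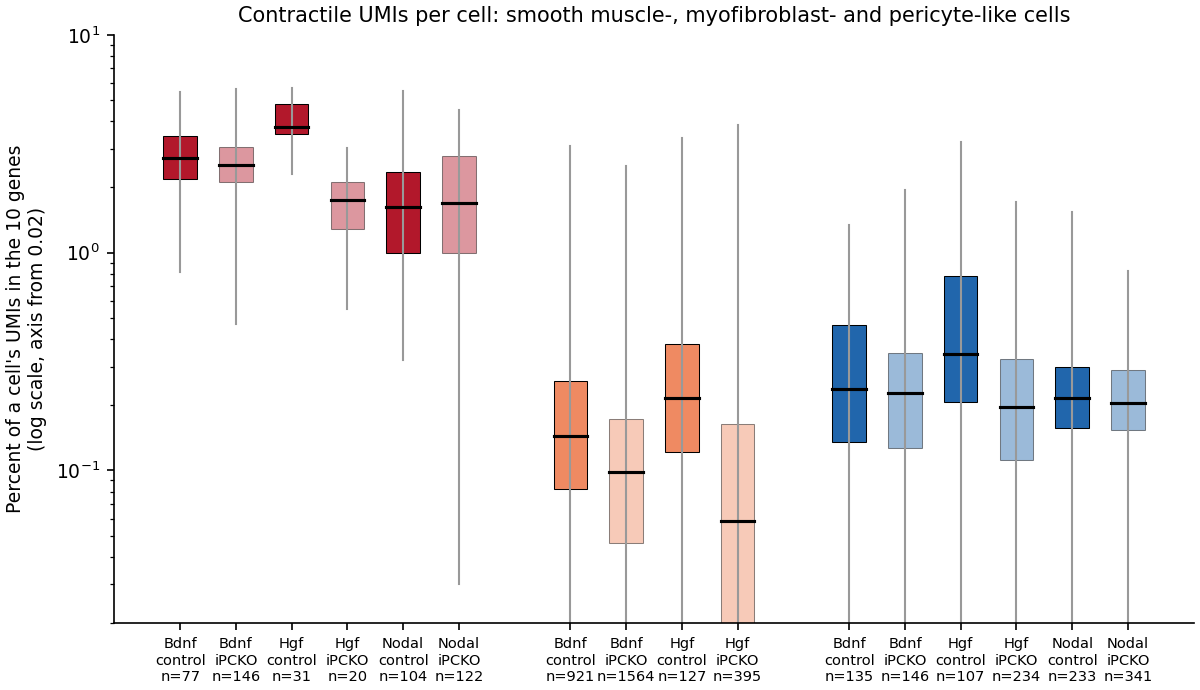
Percent of each cell's UMIs that fell in the 10 contractile genes (log axis, cut at 0.02%) by class and library; boxes are quartiles, lines medians, and whiskers run from the lowest to the highest cell. In all 3 classes the Hgf iPCKO median lies below that of the Hgf control (1.75 and 3.76% in smooth muscle-like cells), and the smooth muscle-like medians of the Nodal genotypes nearly coincide (1.69 and 1.63%).

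Other measurements moved with this difference. Summed smooth muscle markers in pericyte-like cells stood at 285 CPM in the control, with 3 of 12 at 0, and at 137 CPM in the iPCKO library, with 4 of 12 at 0, and the summed pericyte markers at 11245 and 12778 CPM. The 8 smooth muscle markers kept in the score summed to 202 and 112 CPM. Markers of other classes differed in both directions. Higher in the iPCKO pericyte-like cells were endothelial markers at 231 and 561 CPM (1 and 0 of 8 at 0), club markers at 640.2 and 1734 CPM (1 and 2 of 6 at 0) and alveolar type 1 markers at 162 and 409 CPM (1 of 7 at 0 in both). The low sums of ciliated (19.7 and 28.9 CPM), mesothelial and immune markers were higher as well, and the low sum of cardiomyocyte markers was lower. Other lower sums were those of alveolar type 2 markers at 1288 and 871 CPM (0 and 1 of 8 at 0), myofibroblast markers at 742 and 519 CPM (3 and 4 of 10 at 0), matrix fibroblast markers at 526 and 445 CPM (4 and 3 of 8 at 0) and adventitial fibroblast markers at 275 and 235 CPM (2 of 7 at 0 in both). Of the 107 control cells 38 lay also in a pericyte-like cluster, against 186 of the 234 iPCKO cells. With clusters in place of single cells the median was −3.06. The median UMI count of a cell was 1855 and 1523.5, and the estimated share of background RNA 4.78 and 8.45%. The part of these measurements in the result was not tested.

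Many related genes were lower in the Hgf iPCKO pericyte-like cells as well. Of 15 other contractile and thin-filament genes 11 had enough UMIs and 9 were lower, among them Tpm2, a tropomyosin, at 299.8 and 57.7 CPM (−2.38 [−3.15, −1.65]), and the actin crosslinkers and binders Actn1 (−1.51) and Csrp1 (−1.36). Nonmuscle actins were lower too: Actb stood at 6963 and 2444 CPM (−1.51 [−1.63, −1.39]) and Actg1 differed by −1.40. Of the genes for calcium sensitization and relaxation 1 of 8 was lower, the cGMP phosphodiesterase Pde5a, at 3087 and 1456 CPM (−1.08). Of the dissociation and stress genes 3 of 9 were lower, with Ier2 at −1.16 and Egr1 at −0.91, and their summed level was 8660.0 CPM in the control and 6350 CPM in the iPCKO library; their part in the result was not tested. Of 7 mural receptor genes 2 were higher in the iPCKO library and 2 lower. Among the higher was Pdgfrb, the gene whose promoter drives CreERT2, at 1194 and 3975 CPM (1.73). It was higher in pericyte-like cells of the Bdnf pair too, at 615 and 2076 CPM (1.76), and of the Nodal pair, at 878 and 2113 CPM (1.27). The genotype of control mice names no Cre, and the part of the transgene in these Pdgfrb reads was not tested.

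In smooth muscle-like cells of the Hgf lungs Acta2 stood at 16273 CPM [15483, 17093] in the control and 4463 CPM [3838, 5160.1] in the iPCKO library, a log2 ratio of −1.87 [−2.10, −1.64]. Cnn1 had 84 and 8 UMIs (−2.13 [−3.39, −1.09]), Des 58 and 5 (−2.28), and Actg2 103 and 4 (−3.43 [−5.33, −2.03]). Tagln differed by −1.03, Myl9 by −1.20 and Myh11 by −0.90. Again Mylk stayed within its counting error at −0.20 [−0.57, 0.15], and so did Lmod1 at −0.09 [−0.50, 0.31]. In all 7 of 9 genes were lower, at a median of −1.26, but with 20 cells in the iPCKO library only 393 genes had enough UMIs and 29.3% of them were lower as well.

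These 20 cells had 3850 CPM of summed smooth muscle markers against 5921 CPM in the 31 control cells, with 4 and 2 of 12 markers at 0, and 515 against 1279 CPM of pericyte markers. Club markers stood at 481 CPM in control and 1618 CPM in iPCKO cells (4 and 3 of 6 at 0), and alveolar type 2 markers at 1371 and 319 CPM (0 and 5 of 8 at 0). Endothelial markers stood at 261 and 515 CPM (0 and 2 of 8 at 0) and adventitial fibroblast markers at 358 and 147 CPM (4 of 7 at 0 in both). Among other contractile genes 9 of 12 were lower, with Myl6, the essential light chain, at −1.69 and Flna and Lpp at −1.14. Ppp1r14a, the inhibitor of myosin phosphatase known as CPI-17, went from 55 UMIs in control cells to 1 UMI in iPCKO cells (−4.52 [−9.85, −1.98]). These marker sums moved with the result and their part in it was not tested.

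In myofibroblast-like cells of the Hgf lungs 6 of 7 genes were lower, beside 13.8% of 3692 genes, at a median of −1.13 beside 0.12 over all genes. Without cells that carry a second marker class 2 genes were lower, at a median of −1.03, and 4 with 1 more marker required. Here the kinase was among them: Mylk stood at 932 CPM [825, 1050.0] in the control and 427 CPM [380.3, 479] in the iPCKO library (−1.13 [−1.37, −0.88]). Lmod1 differed by −2.14 and Myl9 by −1.69, and Tagln stood at 716 and 373 CPM (−0.94). Acta2 was the exception, at 459 and 367 CPM (−0.32 [−0.63, −0.01]), less than 1.5-fold apart. A UMI of Tagln was found in 48.8% of control and 19.2% of iPCKO cells, or 26.0 and 11.1% at 700 UMIs per cell. Summed pericyte markers stood at 428 CPM in the control and 105 CPM in the iPCKO cells with 3 of 8 at 0 in each, and summed smooth muscle markers at 533 and 408 CPM with 4 of 12 at 0. Most of the latter came from 4 markers left out of the score, mainly Ntrk3 and Pdlim3. The 8 kept in the score summed to 170.0 and 42.5 CPM, with 2 and 3 at 0. Club markers stood at 703 and 1443 CPM (1 and 0 of 6 at 0), alveolar type 2 markers at 1009.5 and 372 CPM (none of 8 at 0), adventitial fibroblast markers at 1384 and 595 CPM (4 and 3 of 7 at 0) and stress genes at 46462 and 35844 CPM. The 10 markers of the class itself summed to 18274 and 12436 CPM with none at 0, and among them Hhip stood at 12015 and 3069.6 CPM and Aspn at 3455 and 6118 CPM. The part of all these in the result was not tested.

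**Figure D4:**
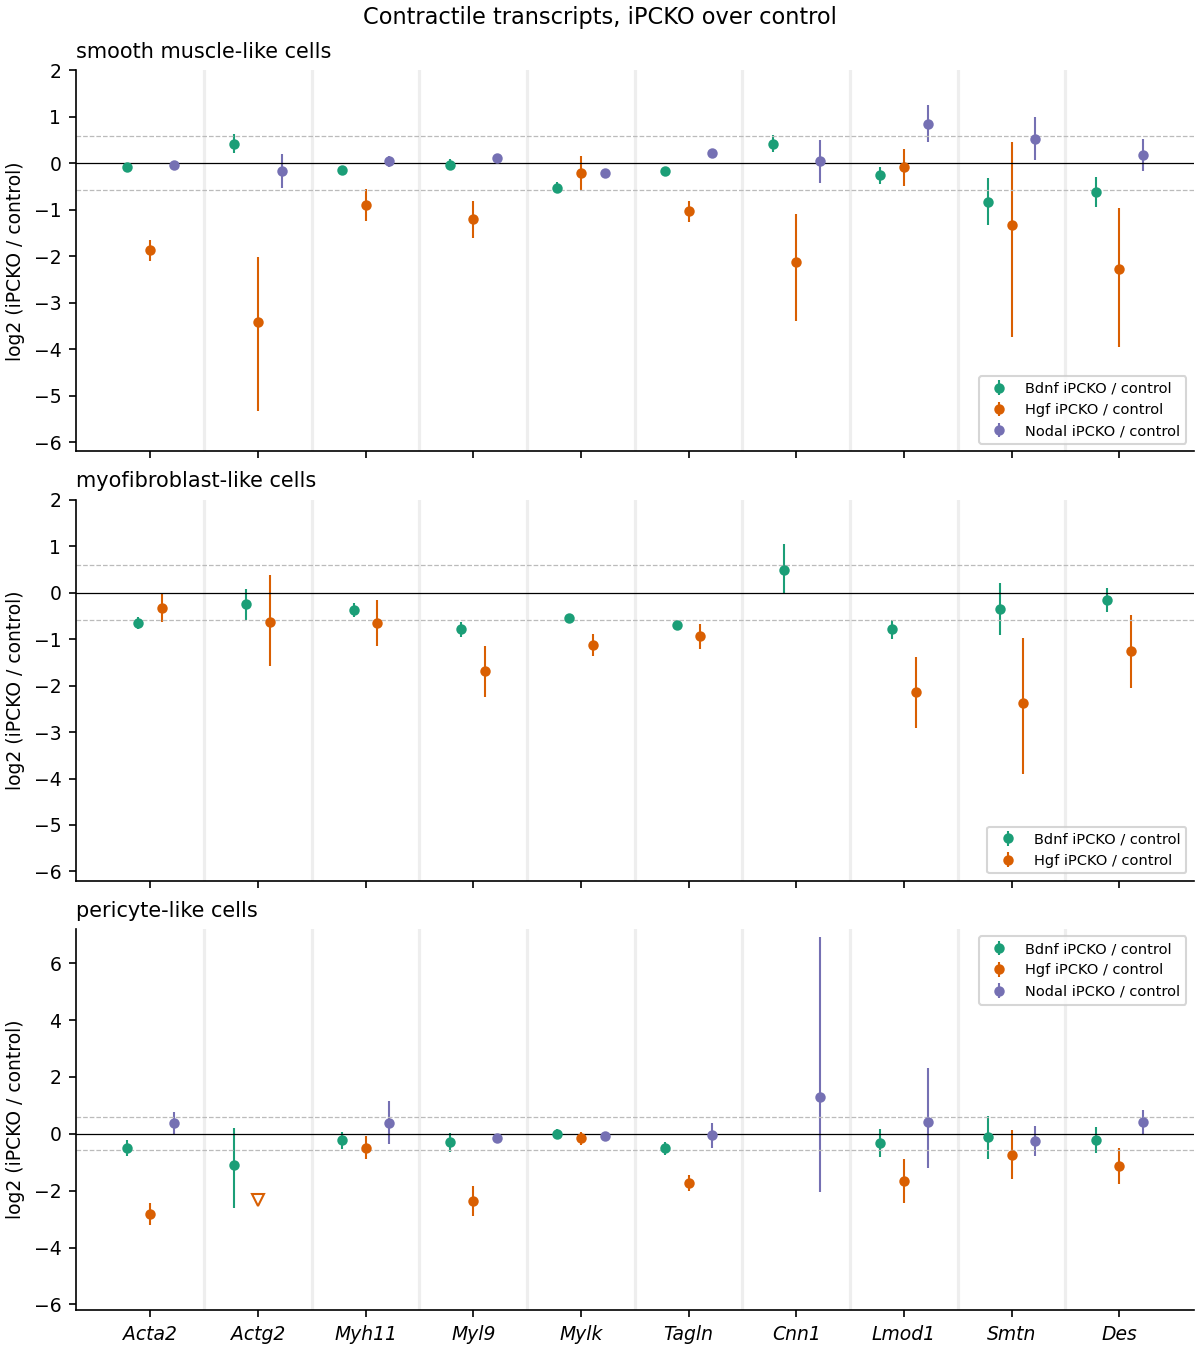
Log2 ratio of iPCKO over control for each contractile gene in smooth muscle-like, myofibroblast-like and pericyte-like cells of each pair. Bars are exact 95% intervals of counting error, dashed lines mark 1.5-fold, and a triangle marks a ratio with a count of 0 set to 3 UMIs. In the Hgf pair the points lie below 0 in all 3 classes, with Mylk near 0 in smooth muscle-like (−0.20) and pericyte-like cells (−0.16) and at −1.13 in myofibroblast-like cells.

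The Bdnf pair differed less. In smooth muscle-like cells Acta2 stood at 10112 CPM in the control and 9487 CPM in the iPCKO library (−0.09 [−0.15, −0.04]), Tagln at 6598 and 5856 CPM and Myl9 at 2431 and 2379.9 CPM. Smtn (63 and 72 UMIs, −0.83 [−1.34, −0.32]) and Des (139 and 184 UMIs, −0.62 [−0.94, −0.29]) were the 2 of 10 genes that were lower, beside 7.53% of all genes, and the median was −0.16. Mylk differed by −0.53 [−0.65, −0.40], while Actg2 stood at 698 and 932 CPM and Cnn1 at 882 and 1176 CPM, both above the control by less than 1.5-fold. All 10 dissociation and stress genes were higher in the iPCKO cells, with a sum of 4711 and 10376 CPM, and Egr1 at 1.77, Junb at 1.69 and Fos at 1.22. Club markers stood at 469 CPM in the control and 920.5 CPM in the iPCKO library (3 and 1 of 6 at 0), myofibroblast markers at 692 and 1084 CPM (2 and 0 of 10 at 0), cardiomyocyte markers at 57.3 and 134 CPM (3 of 7 at 0 in both) and pericyte markers at 927 and 708 CPM (3 and 1 of 8 at 0). The part of these sums in the ratios was not tested. None of 15 other contractile genes passed 1.5-fold.

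In myofibroblast-like cells of the Bdnf pair, where 921 and 1564 cells gave narrow intervals, 4 of 10 genes were lower beside 5.09% of 11019 genes, at a median of −0.46 beside −0.01 over all genes. At double the UMI minimum 2 genes were lower, and 6 with clusters. Acta2 stood at 284 CPM [267, 302] in the control and 180.4 CPM [169, 193] in the iPCKO library (−0.65 [−0.79, −0.52]), and Tagln at 598 and 367 CPM (−0.70). Myl9 and Lmod1 each differed by −0.79, and Mylk stood just inside 1.5-fold at −0.54 [−0.62, −0.46]. Cnn1 was the only gene above the control, at 0.50 [−0.03, 1.04]. None of the 15 other contractile genes passed 1.5-fold in these cells, and their median was −0.06. Summed smooth muscle markers stood at 418 and 415 CPM with 2 of 12 at 0 in both. Most of this came from 4 markers left out of the score, mainly Ntrk3 and Pdlim3. The 8 kept in the score summed to 85.6 CPM in the control and 61.9 CPM in the iPCKO library, with 1 at 0 in both. Club markers stood at 686 and 1251 CPM (none of 6 at 0), endothelial markers at 164 and 268 CPM (none of 8 at 0), and the median UMI count of a cell was 3862 and 2924.5. The 10 markers of the class itself summed to 14816 and 15208 CPM, but Hhip stood at 7385 and 3769 CPM, Aspn at 4227 and 7541 CPM and Tgfbi at 845 and 1539.6 CPM. Their part in the result was not tested.

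In pericyte-like cells of the Bdnf pair no gene of 8 passed 1.5-fold, beside 14.2% of all genes in either direction. Acta2 stood at 559.7 CPM in the control and 395 CPM in the iPCKO library (−0.50 [−0.78, −0.23]) and Tagln at 794 and 557 CPM (−0.51 [−0.74, −0.28]). Mylk was at 1064 and 1061 CPM. The intervals of the remaining genes included 0, and the median of −0.30 became 0.10 with clusters and 0.06 without cells of a second marker class. Across the alternatives up to 2 genes were lower, with 1 more marker required, or 1 higher, with clusters. The sum of stress genes was 7019 and 12802 CPM, with 7 of 10 of these genes higher, that of endothelial markers 310.2 and 566 CPM (none of 8 at 0), that of alveolar type 1 markers 210.5 and 464 CPM (0 and 1 of 7 at 0) and that of club markers 663 and 1385 CPM (0 and 1 of 6 at 0), and their part in the result was not tested.

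The 2 control lungs differed as well. Hgf control over Bdnf control smooth muscle-like cells had 4 of 10 contractile genes higher, beside 13.9% of 1646 genes, at a median of 0.56, with Acta2 at 0.69 and Lmod1 at 0.75. With clusters these calls were lost, with 0 genes higher and 1 lower at a median of 0.25. In pericyte-like cells Acta2 differed between the 2 controls by 1.31 [1.07, 1.55], Myl9 by 0.87, Tagln by 0.85 and Smtn by 0.83, and Mylk by 0.28. Among the 4 lungs, Acta2 in pericyte-like cells thus stood at 1386 CPM in the Hgf control, 559.7 and 395 CPM in the Bdnf control and iPCKO and 197 CPM in the Hgf iPCKO library, and the Bdnf libraries lay between the Hgf ones. Libraries of the pairs differ in depth, in floxed locus and in the UMI minimum (1500 in the Bdnf and 700 in the Hgf libraries). The study mapped standard and enhanced capture beads with different settings without naming the libraries, so bead type and run may differ too. These cannot be told apart.

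In the cortex the set was close to level between the Nodal genotypes. In smooth muscle-like cells Acta2 stood at 7243 CPM in the control and 7041 CPM in the iPCKO library (−0.04 [−0.09, 0.01]), Myh11 at 1255 and 1287 CPM and Myl9 at 2933 and 3189 CPM. Lmod1, at 91.2 and 165 CPM (0.85 [0.47, 1.25]), was the 1 of 10 genes that was higher, beside 4.34% of 5713 genes, and the median was 0.08. With clusters 0 genes were higher and 1 lower, at a median of −0.28. Tagln differed by 0.22 [0.16, 0.29] and Smtn by 0.53 [0.07, 0.99]. Of 10 stress genes 4 were higher, with a sum of 11953 and 15878 CPM, and their part was not tested.

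In cortical pericyte-like cells none of 7 genes passed 1.5-fold, beside 9.96% of 8106 genes in either direction. The 2 abundant genes, Myl9 at 1314 and 1192 CPM (−0.14 [−0.23, −0.05]) and Mylk at 877 and 825 CPM (−0.09), were near level, and the low ones were Acta2 at 63.5 and 83.1 CPM (0.39 [0.00, 0.78]) and Des at 54.3 and 72.3 CPM (0.41). Tagln differed by −0.05 [−0.48, 0.39]. The median of 0.17 rested on genes with few UMIs. With clusters 3 genes were higher at a median of 0.69, and the lowest median over the alternatives was −0.05.

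Outside mural cells and myofibroblasts most levels were low. In endothelial-like cells of the Bdnf pair Acta2 stood at 12.1 and 27.0 CPM and Myh11 at 6.37 and 16.2 CPM, with a median log2 ratio over the set of 0.84, and in alveolar type 2-like cells Acta2 stood at 10.2 and 17.2 CPM. In the Hgf pair Acta2 stood at 15.8 and 8.71 CPM in endothelial-like and 8.19 and 3.87 CPM in alveolar type 2-like cells. Barcodes with at most 100 UMIs, taken here as free RNA, had 41.8 and 65.7 CPM of Acta2 in the Bdnf and 34.7 and 9.35 CPM in the Hgf pair, so that the direction for Acta2 was the same as in both classes. Mylk in alveolar type 2-like cells was lower in both iPCKO lungs, at 114 and 50.4 CPM in the Bdnf pair (−1.18 [−1.24, −1.11]) and 137 and 30.7 CPM in the Hgf pair (−2.16 [−2.30, −2.02]). In barcodes with at most 100 UMIs Mylk was lower in both iPCKO libraries as well, at 223 and 163 CPM in the Bdnf and 224 and 153 CPM in the Hgf pair. Myh11 in endothelial-like cells of the Hgf pair was higher in the iPCKO library, at 11.4 and 26.0 CPM (1.19 [0.92, 1.47]), where Acta2 was lower.

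Across 56 points of a class in a library with at least 50 cells, the members followed one another to different degrees. The correlation of log2(CPM + 1) with the mean of the other 9 genes was 0.978 for Acta2, 0.948 for Tagln and 0.944 for Des, and lowest for Mylk (0.842), Cnn1 (0.788) and Smtn (0.740). Cell-type markers were left out of a ranking of 19731 other genes by likeness to the mean of the set. The 8 most like it in pattern were led by Tpm2 (r = 0.951), Myocd (0.900), Mustn1 (0.893) and Lpp (0.876). Pde5a (0.867), Flna (0.857), Nexn (0.833) and Irag1 (0.827) followed. Points of a library share its depth and free RNA, and these values are descriptions. Myocd, the gene of myocardin, measured 169 CPM in smooth muscle-like, 47.3 CPM in myofibroblast-like and 28.2 CPM in pericyte-like cells of the Bdnf control lung, and Tpm2 measured 2587, 143 and 191 CPM. Lpp, Flna, Nexn and Irag1 were also highest in the smooth muscle-like cells of that library. Pde5a, at 312, 256 and 2056 CPM, was highest in its pericyte-like cells, and Mustn1, at 1577, 1770 and 806 CPM, in its myofibroblast-like cells.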

How the data were processed

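RNA of dissociated lung and cortex cells was captured on the BD Rhapsody platform in 6 libraries, 1 per genotype. The authors aligned reads with STAR 2.7.10a (STARsolo) to GRCm39 with Gencode annotation, applied no cell filter and shared multi-mapping reads by expectation maximization, so the deposited matrices hold estimated counts of UMIs without normalization. Values were rounded to whole numbers for exact intervals and thinning. Shared reads gave fractional entries of up to 8.57% for Actg2, 5.25% for Mylk and 3.85% for Acta2 in a library, and none for Tagln, Cnn1, Smtn and Des. 3 deposited files of barcode parts were not used.

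Barcodes with at least 1500 UMIs (700 in the Hgf libraries) were scored on marker genes of 13 classes in the lung and 8 in the cortex. A score was taken relative to the 90th percentile of barcodes with at least 4 markers of the class; a cell needed 3 markers and a relative score of 0.15, and was left out as mixed when a second class reached 0.5 of the first. Markers that another class held at over 0.33 of their level left the score but still counted towards the 3 markers. Lung smooth muscle-like cells with 4 of 7 cardiomyocyte markers were reclassed. Both rules were set after marker levels had been seen. Doublets were not removed in the values reported; Scrublet marked between 0.649 and 10.6% of barcodes, and their removal was an alternative. UMIs were summed per class and library (numpy 2.4.6, scipy 1.17.1, scanpy 1.11.5), with exact Poisson and conditional exact 95% intervals, which cover counting error only, since UMIs of a pool are not replicates. The ratio and interval code was tested on simulated data.

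The 10 genes, the other lists and the tests were chosen with earlier results of these data known. All 10 are named, and from 7 other lists (66 genes) at most the 3 with the largest ratio in a comparison. Named too are the 8 genes most like the set among those with 200 UMIs, cell-type markers left out. Alternatives were double the UMI minimum, 1 more marker, and removal of doublets or of barcodes with a high mitochondrial share. Others were median-of-ratios scaling, subtraction of background RNA, and no UMI minimum for a gene. A further one assigned clusters (Leiden, resolution 3, on 2000 genes and 30 components) by the same marker scores in place of single cells.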

Additional observations from a re-analysis of the deposited data

How the results depend on the processing

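Of 125 median log2 ratios recomputed under alternatives 120 kept their sign. Of the 125, 112 stayed between the medians of the lower and of the upper counting limits of the single genes. A value could change sign within these limits, which are not an interval of the median itself. Values outside them came from 3 settings. With clusters in place of single cells the medians were −0.51 for Bdnf smooth muscle-like cells and −3.06 for Hgf pericyte-like cells. They were −0.28 and 0.69 for Nodal smooth muscle-like and pericyte-like cells. For smooth muscle-like over pericyte-like cells of the Bdnf and Hgf controls they were 5.00 and 1.97. For Hgf over Bdnf control smooth muscle-like cells the median was 0.25. Myofibroblast-like over pericyte-like cells of the Bdnf control turned to 0.61. The cause was not tested. Clusters gave no value for smooth muscle-like cells of the Hgf pair, since none formed in the iPCKO library. Without cells whose second class reached 0.25 of the first, an alternative chosen after seeing the data, they were −0.053 for Bdnf smooth muscle-like cells, 3.44 and 3.56 for smooth muscle-like over pericyte-like cells of the Bdnf and Hgf controls and −0.17 for myofibroblast-like over pericyte-like cells of the Bdnf control. Median-of-ratios scaling gave 3.25 for smooth muscle-like over pericyte-like cells of the Bdnf control. Of 1203 values of single genes 4 reversed: Smtn in Hgf pericyte-like cells with clusters (0.22), and, in myofibroblast-like over pericyte-like cells of the Bdnf control, Acta2 (3.61) and Myh11 (0.47) with clusters and Acta2 without cells of a second class (0.20). Counts of genes past 1.5-fold moved by more than 1.5 times in 7 of 14 comparisons. Lower genes went from 4 to 2 in Bdnf myofibroblast-like cells at double the UMI minimum (1 was higher with 1 more marker), and from 6 to 2 in Hgf myofibroblast-like cells without cells of a second class. In myofibroblast-like over pericyte-like cells of the Bdnf control they went from 6 to 3 under clusters, where 5 were higher instead of 0, and to 3 without cells of a second class, where 1 was higher. In Bdnf pericyte-like cells 0 became 1 or 2 lower or 1 higher, in Nodal pericyte-like cells 0 became 3 higher under clusters, in Nodal smooth muscle-like cells 1 higher became 1 lower under clusters and 2 higher under median-of-ratios scaling, and in smooth muscle-like cells of the Hgf over the Bdnf control 4 higher became 1 lower under clusters. No paired analysis was possible because each genotype is 1 library.

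The sums of UMIs set the limits. Smooth muscle-like cells of the Hgf iPCKO library held 40784 UMIs, so Smtn with 3 and Actg2 with 4 UMIs have wide intervals there, and Cnn1 had at most 4 UMIs in the pericyte-like cells of any library. With 1 pool of 2 mice per genotype, no interval covers differences between mice, dissociations or libraries.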

Other observations

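Cells that carried pericyte and smooth muscle markers side by side were left out of both classes. They numbered 38 and 78 in the Nodal control and iPCKO cortex, 9 and 8 in the Bdnf control and iPCKO lung and 11 in the Hgf control lung, and none of these was marked as a doublet. The Hgf iPCKO lung had 4, too few to be summed. In the cortex their Acta2 stood at 1494 and 1210.1 CPM, between the 63.5 CPM of pericyte-like and the 7243 CPM of smooth muscle-like control cells, while their Myl9, at 1836 and 1719 CPM, lay between the 1314 and 2933 CPM of the same classes. Cnn1, which smooth muscle-like cells of the cortex held at 84.0 CPM, had no UMI in these cells of either genotype, where 3 UMIs would be the floor. The lung cells of this kind also stood between both classes, with Acta2 at 6743 and 5787 CPM in the Bdnf and 7457 CPM in the Hgf control library. The 10 genes took a median of 0.431 and 0.364% of the UMIs of such a cell in the cortex, where pericyte-like cells had 0.215 and 0.204% and smooth muscle-like cells 1.63 and 1.69%.

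In the cortex Smtn stood in endothelial-like cells at 104 CPM in the control and 92.1 CPM in the iPCKO library (log2 ratio −0.18, 95% interval −0.29 to −0.06), beside 72.7 and 105 CPM in smooth muscle-like cells. In endothelial-like cells of the Hgf lungs it stood at 28.8 and 15.4 CPM (log2 ratio −0.90, −1.14 to −0.67) and in those of the Bdnf lungs at 17.7 and 19.0 CPM.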
